A study of Mus musculus with 6 samples.

Results

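*Mustn1*, the gene disrupted in the mice, was examined together with the 7 genes of the Fos and Jun families (*Fos*, *Fosb*, *Fosl1*, *Fosl2*, *Jun*, *Junb* and *Jund*). These 8 genes were taken by symbol from the 16180 genes of the deposited normalized table and joined by Ensembl identifier to the 51912 genes of the deposited count table. The samples were soleus muscles of 8-week-old C57BL6/N mice, 3 heterozygous for the Mustn1 KO-first allele (HET) and 3 wild-type (WT) littermates, with 1 poly-A RNA library per mouse. The KO-first allele (tm1a) is a whole-body allele in which exon 1 is designed to be spliced into a trap that carries lacZ and a neomycin resistance gene, and the study describes splicing past the trap under some conditions. The line came on a C57BL/6N background with the agouti allele A tm1Brd and had been selected against the albino allele of *Tyr*, and the sources used here do not give the coat color alleles of single mice. The HET mice keep 1 intact copy of *Mustn1*, and the WT mice carry neither the trap nor any other engineered allele that the labels name. Sources used here do not give which mice shared a litter, so the p-values measure the spread between these 6 animals.

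*Mustn1* encodes a very small protein of bone, cartilage and muscle. AP-1 is a dimer of a Jun protein with a Fos, Jun or ATF protein, in which leucine zippers hold the partners together and adjacent basic regions bind DNA at the sequence TGANTCA. *Fos*, *Fosb* and *Junb* are immediate-early genes whose transcripts appear within minutes of contraction, stretch, injury or tissue handling, whereas *Jund* is transcribed in resting tissue. AP-1 has been reported to act on the *Mustn1* promoter in differentiating muscle cells, which is why the genes are set side by side.

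*Mustn1* lies on the plus strand at chr14:30879257-30881608 of GRCm38, with 3 exons of 359, 133 and 685 bases in the count table. Its coding sequence is shown because it locates the trap. The 246 bases encode 82 codons, and exon 1, the exon that the trap takes, holds only the first 9 of these bases. Capitals mark the 133 bases of exon 2, with the last 9 bases of exon 1 before them and the 104 coding bases of exon 3 after them (GENCODE M21, GRCm38).
Mustn1 coding sequence: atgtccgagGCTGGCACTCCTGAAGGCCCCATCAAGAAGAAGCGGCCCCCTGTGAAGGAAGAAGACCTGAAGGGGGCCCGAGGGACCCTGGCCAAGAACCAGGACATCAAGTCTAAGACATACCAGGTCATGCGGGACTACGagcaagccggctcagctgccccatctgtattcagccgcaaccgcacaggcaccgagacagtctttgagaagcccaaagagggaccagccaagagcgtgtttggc

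Exon 1 makes up 30.5% of the bases over which *Mustn1* reads were counted, and a transcript that runs from exon 1 into the trap would still give reads there. Reads were counted per gene, so the trapped and the intact transcripts were not separated, and reads of lacZ are not analysed here.

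The DNA just before the start sites of *Mustn1*, *Fos* and *Jun* is shown because promoter DNA is where AP-1 and the signals that induce *Fos* and *Jun* are known to act. It is only a part of that DNA, and sites farther out were not searched. RefSeq windows (GRCm38.p6) matched 7 of the 8 genes by symbol, and the 250 bases before each start were searched on both strands. In the printed stretches, capitals mark matches to TGANTCA (the AP-1 site), TGACGTCA (the full CRE bound by CREB and ATF proteins), TGACG (the CRE core, contained in the full CRE), TGACATCA (the AP-1-like site known from the *Jun* promoter), CATTCC (the MCAT element of muscle genes), TATAAA (the TATA box), and the CArG box and MEF2 site by name.
Mustn1, chr14:30879007-30879199, plus strand: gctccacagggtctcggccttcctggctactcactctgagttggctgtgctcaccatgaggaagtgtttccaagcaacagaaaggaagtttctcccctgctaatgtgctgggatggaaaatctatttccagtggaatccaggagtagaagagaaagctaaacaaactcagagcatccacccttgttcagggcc
Fos, chr12:85473640-85473889, plus strand: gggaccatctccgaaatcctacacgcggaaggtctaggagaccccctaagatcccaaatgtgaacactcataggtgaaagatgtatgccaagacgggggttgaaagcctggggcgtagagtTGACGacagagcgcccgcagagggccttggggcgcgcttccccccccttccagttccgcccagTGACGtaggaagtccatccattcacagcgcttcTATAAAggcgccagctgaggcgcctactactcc
Jun, chr4:95052223-95052472, minus strand: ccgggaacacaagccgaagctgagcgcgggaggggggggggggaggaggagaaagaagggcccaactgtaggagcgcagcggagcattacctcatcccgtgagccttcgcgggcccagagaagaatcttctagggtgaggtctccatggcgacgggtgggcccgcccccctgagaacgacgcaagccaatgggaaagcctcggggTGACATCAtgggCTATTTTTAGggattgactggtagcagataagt

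The *Mustn1* stretch stops 57 bases before the RefSeq start, where the GENCODE transcript begins, and neither these bases nor the rest of its window held a match to any of the 9 motifs searched, the E-box CANNTG included. That says only that these letters are not in this window. The same limit holds for each missing match of the other members below. TGANTCA was in none of the 7 members' windows, and it was in 6.75% of all 32851 RefSeq windows. The full CRE was in none of the members' windows either (1.55% of all windows). The CRE core TGACG was found before *Fos* (2 matches, beginning at -129 and -66 from the start), *Fosb* (-60) and *Junb* (-106), against 17.8% of all windows. *Fos* alone among the members held TATAAA (at -33, 12.4% of all windows). *Jun* alone held TGACATCA (at -45, 2.93% of all windows) and a MEF2 match (at -33, 2.92%). CATTCC (12.6% of all windows) and the CArG box (1.47%) matched in no member, and CANNTG, found in 66.2% of all windows and not capitalised above, matched before *Fos*, *Fosb*, *Jun*, *Junb* and *Jund*. *Jund* and *Fosl2* need care here, since their RefSeq start sites (chr8:70697739 and chr5:32136472) differ from the starts used for counting (70698949 and 32135801).

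The libraries held between 26790075 and 50368796 reads on genes, with HET 2 the smallest and WT 3 the largest. The labels call all 6 mice male. In every library, however, *Xist*, which is transcribed from the inactive X chromosome of females, had between 3858 and 9154 reads, and the Y-linked *Ddx3y*, *Eif2s3y*, *Kdm5d* and *Uty* together had between 0 and 12. These reads go against the label in both genotypes alike. Defining genes of soleus fibers were abundant in all mice, with the 10 slow fiber markers summing to between 41590 and 47468 CPM and the lowest single count among them at 15139 reads. CPM, used throughout, is the usual depth-normalised read count (counts per M reads), here after TMM scaling, which sets libraries on a common footing by their bulk of genes.

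Across all 14696 genes that passed the filter on low counts, 21 were higher and 1 was lower in HET by edgeR's quasi-likelihood test at an adjusted p below 0.05, which is 0.15% of the genes tested. The 1 lower gene was *Mustn1*. Its level was 12.6, 16.8 and 13.1 CPM in HET 1, 2 and 3, and 23.1, 29.0 and 30.5 CPM in WT 1, 2 and 3. Every HET mouse lay below every WT mouse, as was so for 6.02% of all genes tested, and the gap between the highest HET and the lowest WT mouse was larger than the range within HET and smaller than that within WT. The means were 14.2 ± 2.33 CPM in HET and 27.5 ± 3.89 CPM in WT (SD, n = 3 each), so HET held 51.5% of the WT level. These levels rest on between 452 and 1504 reads per library.

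The fitted log2 fold change of *Mustn1* was -0.96 (SE 0.15, 95% interval -1.29 to -0.64, edgeR adjusted p = 0.0452), the 15th smallest p among all genes. Its size changed little over the 15 alternatives, from -1.09 to -0.88, but the adjusted p of the main fit lay close to the threshold. The adjusted p was far lower with DESeq2 (2.24e-06) and with edgeR without the filter on low counts (1.06e-10). Those settings also called more genes higher over all genes (200 and 386). *Mustn1* missed the threshold with limma-voom (adjusted p = 0.0673) and with edgeR without robust estimation (adjusted p = 0.0606). By edgeR it also missed without HET 1 (0.137), without HET 3 (0.280), without WT 1 (0.0659) and without WT 2 (0.125). Without HET 2 or without WT 3 the edgeR adjusted p stayed below the threshold. Since whole muscle was sequenced, fewer cells that express a gene and less of its RNA per cell cannot be told apart, for *Mustn1* and for the genes below.

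*Mustn1* is known from smooth as well as skeletal muscle, so smooth muscle markers are given beside it. Of 14 such markers, all tested, none passed the test, 6 were above 0 and 8 below, with a median log2 fold change of -0.02 against -0.02 for all genes. Their summed level was between 4333 and 4704 CPM in HET and between 4344 and 4844 CPM in WT. No marker was at 0 in any mouse. Most of that sum was *Hspb6* (mean 2345 CPM in HET, 2331 CPM in WT) and *Synpo2* (1199 and 1219), named after their values were seen. The sum therefore says little about the other markers. At the ends of the list were *Cnn1*, calponin of contractile smooth muscle (log2 fold change 0.60, edgeR adjusted p = 0.899), and *Myocd*, the coactivator that drives smooth muscle genes (-1.27, adjusted p = 0.323). *Myocd* was at 0.321, 0.298 and 0.205 CPM in HET and at 0.502, 0.709 and 0.750 CPM in WT, so the genotypes did not overlap although the test was not passed. In *Pln* (-0.53, adjusted p = 0.567) and *Rgs5* (-0.33, adjusted p = 0.385), named after their values were seen, every HET mouse was also below every WT mouse, which made 3 of the 14 (6.02% of all genes) and none the other way. The part of vessel content in the *Mustn1* value was not tested.

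**Figure D1:**
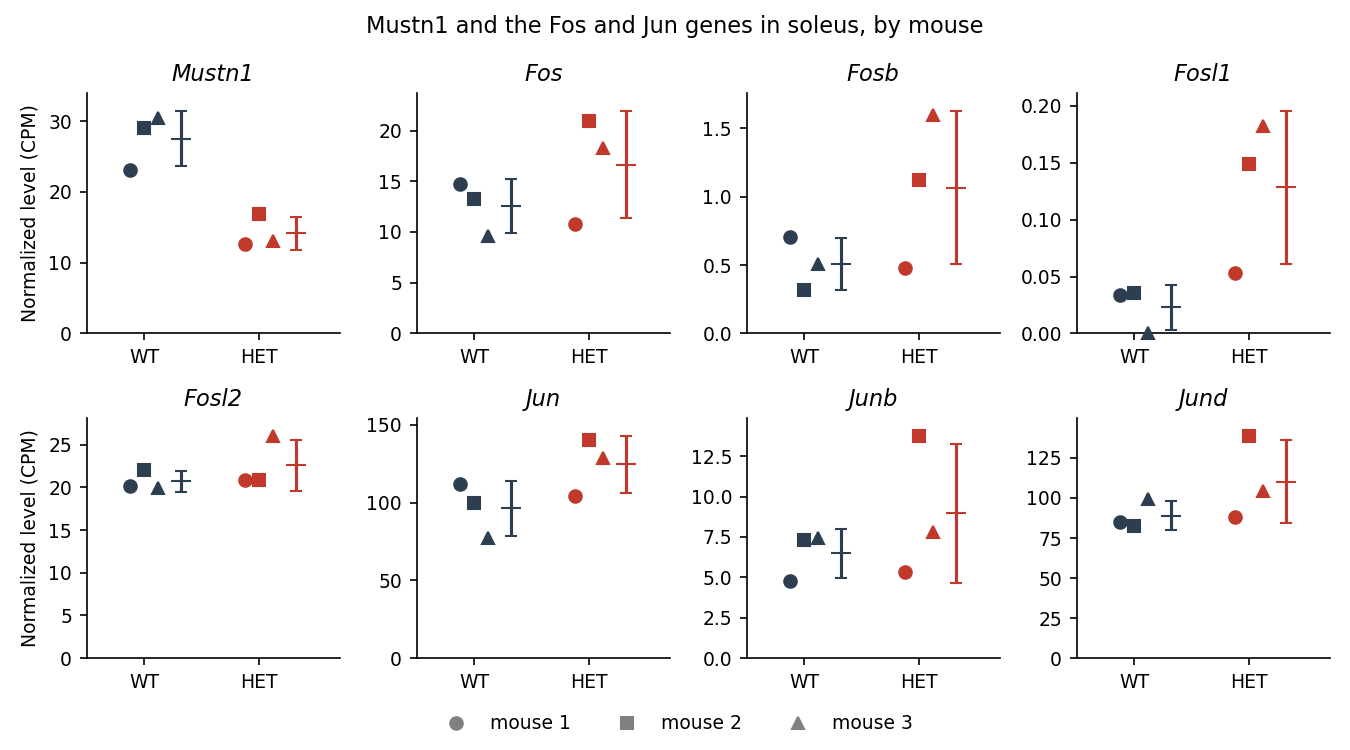
Level of each of the 8 genes in CPM (y axis, linear and starting at 0, a scale of its own in each panel) in the 3 WT mice (dark) and the 3 HET mice (red), with the mean and SD beside the points and the mouse number as the marker shape. *Mustn1* is the 1 tested gene whose genotypes are apart (12.6 to 16.8 CPM in HET, 23.1 to 30.5 CPM in WT). In each of the tested Fos and Jun genes the genotypes overlap, and *Fosl1*, near 0, rests on 0 to 8 reads per mouse.

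The Fos and Jun genes can be set in order only per length. In WT mice the order of levels per kb of exon was *Jund* (53.3 ± 5.38 CPM per kb), *Jun* (30.2 ± 5.60), *Mustn1* (23.4 ± 3.31), *Fos* (5.33 ± 1.13), *Junb* (2.82 ± 0.656), *Fosl2* (2.14 ± 0.123) and *Fosb* (0.0816 ± 0.0307; SD, n = 3 each), with *Fosl1* last on only 2 reads in all WT libraries together. *Jund* was above 95.9% and *Fosb* above 3.03% of all genes tested on this scale. Neighbours in the order that were not apart in WT were *Jun* with *Mustn1* and *Junb* with *Fosl2*. In HET mice *Mustn1* was apart from *Jun*, at 10.7 to 14.3 against 32.8 to 44.0 CPM per kb, while *Fos* with *Junb*, *Junb* with *Fosl2*, and *Fosb* with *Fosl1* overlapped. *Jun* and *Jund* together made up between 87.9% and 90.3% of the summed per-kb level of the 7 genes in every mouse, so AP-1 transcripts in these muscles were mostly of 2 Jun genes. The Jun family exceeded the Fos family per kb by 9.82-fold to 14.0-fold, with the lowest ratio in HET 3 and the highest in WT 3, and the genotypes overlapped. Within the Fos family, *Fos* gave between 65.6% and 78.6% of the per-kb level. The lengths join all counted exons of a gene (2352 bases for *Fos*, 6243 for *Fosb*, 9680 for *Fosl2*), so the order and this share depend on them. In CPM without length, *Fosl2* was above *Fos* in WT (means 20.7 and 12.5).

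**Figure D2:**
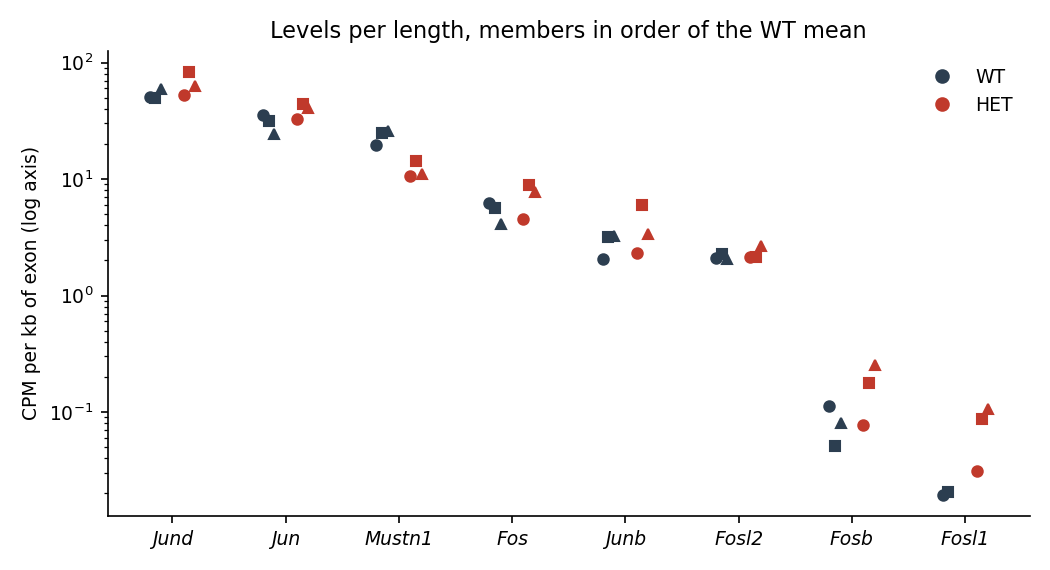
Level per kb of counted exon (y axis, log scale) of the 8 genes in each WT (dark) and HET (red) mouse, with marker shapes for mice 1 (circle), 2 (square) and 3 (triangle). *Jund* and *Jun* stand highest, *Mustn1* lies beside *Jun* in WT and below it in HET, and *Fosb* and *Fosl1* lie below the other 6 genes in every mouse. *Fosl1* in WT 3 had no read and is not drawn.

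None of the Fos and Jun genes passed the test, and all 6 that could be tested lay above 0, where 45.6% of all genes lay. Their median log2 fold change was 0.39, against -0.02 over all genes, and it stayed between 0.22 and 0.56 over the alternatives. *Fosb* and *Jun* had an unadjusted p below 0.05, where 5.76% of all genes were higher at that level, and in none of the 6 did every HET mouse lie above every WT mouse, as 7.55% of all genes did. With 6 genes, a count of 2 is a description, and the 6 share their libraries. Over the 15 alternatives (14 for *Fosb*) none of these 6 genes went below 0.

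*Fos* (chr12:85473890-85477273, plus strand) encodes the prototype immediate-early partner of Jun. It was at 10.8, 20.9 and 18.3 CPM in HET and 14.7, 13.3 and 9.58 CPM in WT. HET 2 and HET 3 were the highest of the 6 mice, but HET 1 fell within the WT range. The log2 fold change was 0.41 (SE 0.25, 95% interval -0.16 to 0.98, edgeR adjusted p = 0.817). It was 0.65 without HET 1 and 0.24 without HET 2 or without WT 3.

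*Fosb* (chr7:19302696-19310051, minus strand) encodes a related immediate-early protein that also occurs as a stable truncated form. Its transcript was scarce, with between 9 and 70 reads per library, at 0.481, 1.12 and 1.60 CPM in HET and 0.702, 0.319 and 0.506 CPM in WT. HET 1 again lay inside the WT range while HET 2 and HET 3 lay above it. This gave the largest fitted difference among the Fos and Jun genes that were tested, a log2 fold change of 1.06 with a wide interval (0.03 to 2.09, SE 0.46, unadjusted p = 0.0440, edgeR adjusted p = 0.622), and it was 0.61 without HET 3.

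*Fosl1* (chr19:5447703-5455945, plus strand), which encodes Fra-1, was too scarce to be tested. It had 2, 4 and 8 reads in HET 1, 2 and 3 and 1, 1 and 0 reads in WT 1, 2 and 3. Summed per genotype, 14 reads against 2 gave a ratio of 6.95 with an exact 95% interval of 1.60 to 63.0 that covers counting error only, and not the spread between mice. Each WT library was under 3 reads, so no mean level is given for WT. Without the filter on low counts, edgeR gave *Fosl1* an adjusted p of 0.715.

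*Fosl2* (chr5:32135801-32157842, plus strand), which encodes Fra-2, was the steadiest of the family. Its level was 20.9, 20.8 and 26.0 CPM in HET and 20.1, 22.1 and 19.9 CPM in WT. Only HET 3 stood above the WT range. The log2 fold change was 0.13 (SE 0.12, 95% interval -0.13 to 0.39, edgeR adjusted p = 0.889), and it was 0.02 without HET 3.

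*Jun* (chr4:95049034-95052222, minus strand) encodes the Jun protein that also drives its own promoter through the AP-1-like site printed above. Its level was 105, 140 and 129 CPM in HET and 112, 99.8 and 77.0 CPM in WT. HET 2 and HET 3 lay above all WT mice, and HET 1 lay between WT 2 and WT 1. The log2 fold change was 0.37 (SE 0.15, 95% interval 0.04 to 0.70, unadjusted p = 0.0323, edgeR adjusted p = 0.568), and it was 0.23 without WT 3. When the filter on low counts was left out, *Jun* passed the edgeR test (adjusted p = 0.0173), in a setting that called 386 genes higher. It was the only one of the 7 to pass in any alternative. An antisense gene, *Junos*, overlaps *Jun*, and reads were counted by strand.

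*Junb* (chr8:84974484-84978718, minus strand) encodes a Jun protein that is a weaker activator and is known to help maintain muscle mass. It was at 5.34, 13.7 and 7.79 CPM in HET and 4.75, 7.31 and 7.42 CPM in WT. HET 2 stood far above the other 5 mice, which ranged together. The log2 fold change of 0.45 (SE 0.34, 95% interval -0.33 to 1.23, edgeR adjusted p = 0.863) was 0.03 without HET 2.

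*Jund* (chr8:70698949-70700616, plus strand) encodes the constitutive Jun protein. Its level was 87.9, 139 and 104 CPM in HET and 84.7, 82.7 and 99.2 CPM in WT. HET 2 was again the highest mouse and HET 1 lay inside the WT range. The log2 fold change was 0.31 (SE 0.15, 95% interval -0.04 to 0.66, edgeR adjusted p = 0.727) and it was 0.13 without HET 2. *Prdx2* on the other strand overlaps *Junb*, and *Gm11175* overlaps *Jund*.

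HET 2 was the highest of the 6 mice for 4 of the 6 tested genes and HET 3 for the other 2, while WT 3 was the lowest for 3. Without HET 2 the median of the 6 fell from 0.39 to 0.22. HET 2 was also the smallest library, and the part of depth in these values was not tested.

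**Figure D3:**
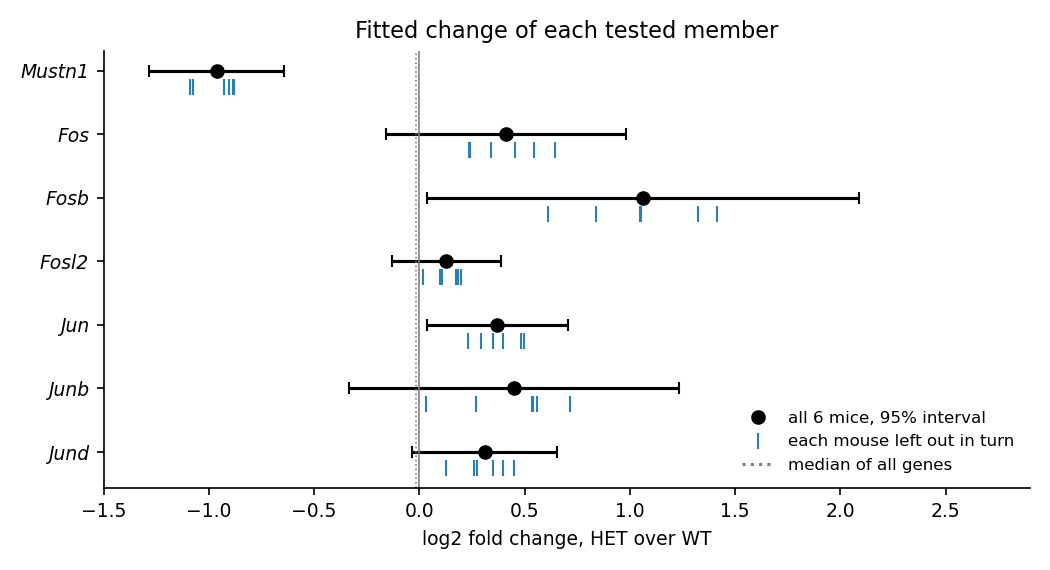
Fitted log2 fold change of HET over WT (x axis) for the 7 tested genes, as black points with 95% intervals, with blue ticks for the fits that leave out each mouse in turn and a dotted line at the median of all genes (-0.02). *Mustn1* lies far below 0 in every fit (-1.09 to -0.88), and the Fos and Jun genes lie above 0 with intervals that reach or nearly reach 0.

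Genes that are induced together with *Fos* were examined next, as a list of 34 immediate-early and handling genes. Of the 33 tested, none passed the test, 20 were above 0 and 13 below, and the median log2 fold change was 0.09. Their summed level was between 966 and 982 CPM in the HET mice, inside the WT range of 862 to 1081 CPM. At the ends were *Arc*, an activity-regulated gene of synapses (1.17, edgeR adjusted p = 0.306), and *Gadd45g*, a stress gene (-0.51, adjusted p = 0.899). *Arc* was at 0.855, 0.894 and 1.18 CPM in HET and 0.334, 0.603 and 0.385 CPM in WT, without overlap. *Gadd45g* was at 28.3, 13.5 and 18.7 CPM in HET and 19.4, 18.3 and 48.0 CPM in WT, where WT 3 alone stood high. *Egr1*, a serum-response gene named here after its values were seen, was at 7.21, 17.4 and 9.16 CPM in HET and 6.99, 25.5 and 7.05 CPM in WT. Its highest mouse was WT 2. Every HET mouse lay above every WT mouse in 4 of the 33, *Arc*, *Egr2*, *Socs3* and *Btg2* (7.55% of all genes, the last 3 named after their values were seen), and 5 were higher and 0 lower at an unadjusted p below 0.05 (5.76% of all genes were higher).

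Other basic leucine zipper genes, whose proteins can pair with Fos or Jun or compete for related sites, numbered 28 tested of 29. None passed the test, 10 were above 0 and the median was -0.04. The ends were *Batf3*, a Jun partner of dendritic cells (1.20, edgeR adjusted p = 0.577), and *Batf2* (-0.35, adjusted p = 0.948). *Batf3* was between 0.294 and 0.342 CPM in HET and between 0.0709 and 0.201 CPM in WT. It passed the filter on low counts only through the HET mice. Its separation and its place at the high end are therefore partly set by that filter. *Atf3*, a stress-induced Jun partner named after its values were seen, was at 17.4, 20.1 and 41.4 CPM in HET and 20.6, 19.1 and 12.5 CPM in WT, with HET 3 alone apart and an edgeR adjusted p of 0.831.

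Kinases and regulators that act upstream of AP-1, from MAP kinases to *Srf* and the Elk factors, had no gene past the test among 29 tested of 30. Of these, 9 were above 0 and 20 below, with a median of -0.08. *Mapk11*, which encodes p38 beta, was the highest (0.60, edgeR adjusted p = 0.613), at 1.76, 1.90 and 2.87 CPM in HET and 1.34, 1.31 and 1.64 CPM in WT. *Mapk10*, which encodes the JNK3 kinase, was the lowest (-0.92, adjusted p = 0.754), at 0.134, 0.149 and 0.296 CPM in HET and 0.502, 0.355 and 0.304 CPM in WT. Neither pair of ranges overlapped, and *Mapk10* was scarce in every mouse. *Mapk10* lay near the filter on low counts and passed it mainly through the WT mice. Its separation and its place at the low end are therefore partly set by that filter. In 6 of the 29 every HET mouse lay below every WT mouse (6.02% of all genes).

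Genes reported as AP-1 targets also lay mostly above 0. Of 18 tested of 24, none passed the test, 15 were above 0 and 3 below, and the median log2 fold change was 0.41, while 6 of the list, *Il6*, *Ccl2*, *Mmp3*, *Mmp9*, *Mmp13* and *Gcg*, were below the filter on low counts. The median was 0.19 without HET 3 and 0.27 without WT 3. Of the same 18, 3 passed with DESeq2, 5 without the filter on low counts and 1 with a replicate block, and none in the other alternatives. Of the 14696 genes of the main fit, 207, 386 and 116 passed in those settings. In 5 of the 18 every HET mouse lay above every WT mouse (7.55% of all genes), and 7 had an unadjusted p below 0.05 in that direction (5.76% of all genes). Like the other lists, this list was chosen with earlier results of these data known. It holds *Mmp14*, which the study names among genes higher in HET, so these counts are a description. *Spp1*, which encodes osteopontin, was the highest (1.30, edgeR adjusted p = 0.460), at 2.08, 1.79 and 4.99 CPM in HET and 0.602, 1.35 and 1.62 CPM in WT. The metallothionein gene *Mt1* was the lowest (-0.31, adjusted p = 0.880).

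Several genes of that list are made by fibroblasts or macrophages, whose markers differed between the genotypes. All 15 macrophage markers were above 0, with a median of 1.39 and a summed level of 103 to 144 CPM in HET against 57.0 to 62.7 CPM in WT. Of these, 7 rose in HET by edgeR's test, which 0.15% of all genes passed in either direction. They were *Adgre1*, *Csf1r*, *C1qa*, *C1qb*, *Lyz2*, *Ctss* and *Laptm5* (log2 fold changes 1.29 to 1.61, edgeR adjusted p between 0.0130 and 0.0452). The count of 7 was 0 without HET 1, HET 3, WT 1 or WT 2, 10 without WT 3, and 5 without HET 2, with all 15 above 0 each time. Over all genes, 80 passed without WT 3, 15 without HET 2 and 0 in the other fits without a mouse. The marker count was 2 with limma-voom, 4 without robust estimation, 10 with DESeq2, 11 without the filter on low counts and 9 with a replicate block. Over all genes those settings called 3, 6, 207, 386 and 116. The 15 fibroblast markers were all above 0 as well (median 0.83, 2423 to 3234 CPM in HET and 1184 to 1848 CPM in WT), and *Pi16*, a gene of adventitial fibroblasts, passed the test (log2 fold change 1.06, edgeR adjusted p = 0.0452). None of the fibroblast markers passed without HET 1, HET 3, WT 1 or WT 2, with limma-voom or without robust estimation. Of the 15, 8 passed with DESeq2, 11 without the filter on low counts and 8 with a replicate block (207, 386 and 116 of all genes). All 12 tenocyte markers lay above 0 (median 0.998, 570 to 893 CPM in HET and 249 to 445 CPM in WT), with none past the test, from *Scx* (0.15) to *Prg4* (2.27). Of the tenocyte markers, 2 passed with DESeq2, 3 without the filter on low counts and 6 with a replicate block, beside those same counts over all genes. None passed in the other alternatives. In each of these 3 lists the summed level separated the genotypes, no marker was at 0 in any mouse, and its part in the AP-1 and target values was not tested.

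The summed levels of the endothelial and fiber markers overlapped between the genotypes. Of 12 endothelial markers, 5 were above 0 and none passed (median -0.06, *Cldn5* 0.22 to *Cdh5* -0.18), with summed levels of 749 to 914 CPM in HET and 791 to 971 CPM in WT. Of 10 slow fiber markers 1 was above 0 and none passed (median -0.08, *Myh7* 0.01 to *Myoz2* -0.18, every HET mouse below every WT mouse in *Myoz2* and in *Atp2a2*, the latter named after its values were seen, 41590 to 44612 CPM in HET and 42597 to 47468 CPM in WT). Of 10 fast fiber markers 1 was above 0 and none passed (median -0.20, *Myh2* 0.14 to *Myh4* -0.91, 46568 to 56010 CPM in HET and 52506 to 54767 CPM in WT). *Myh4* was at 44.7, 2042 and 167 CPM in HET 1, 2 and 3 and at 1470, 1774 and 976 CPM in WT. HET 2 thus lay above the WT range and HET 1 and HET 3 below it. Every HET mouse lay below every WT mouse in 4 of these 10 fast fiber markers, *Tnnt3*, *Tnni2*, *Tnnc2* and *Pvalb*, named after their values were seen (6.02% of all genes).

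**Figure D4:**
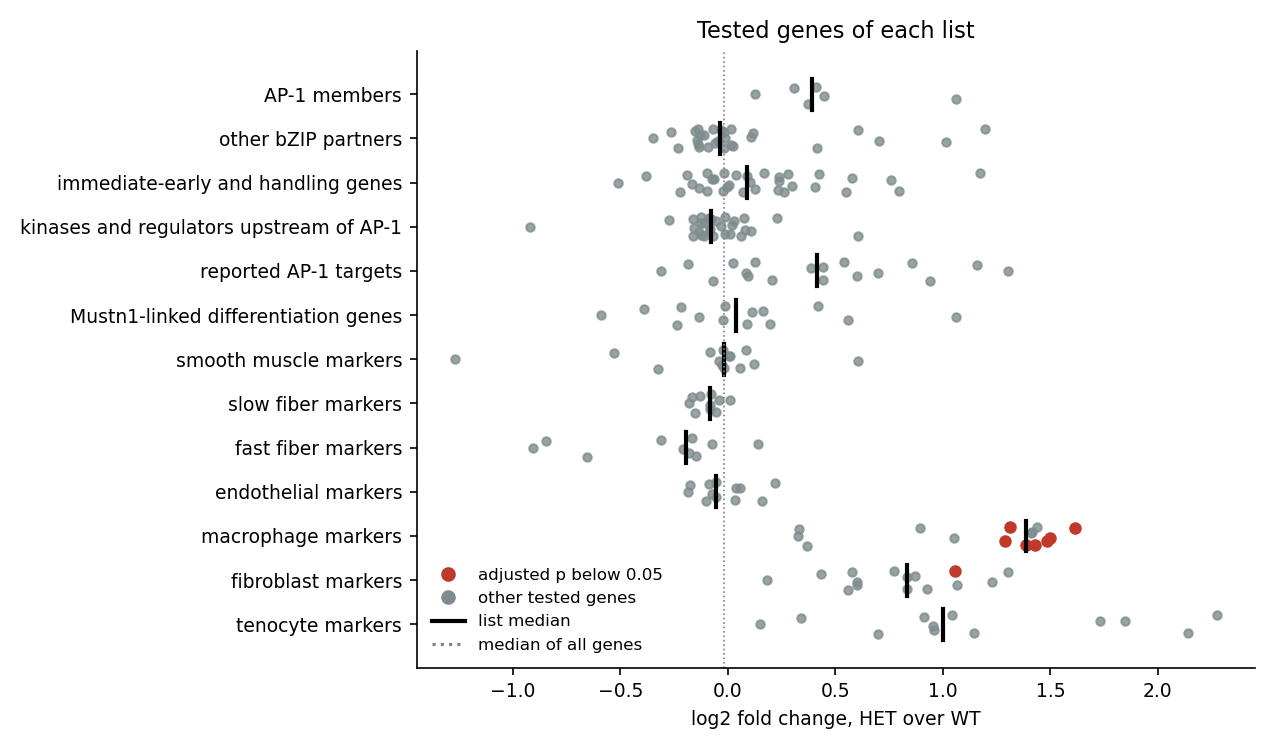
Log2 fold change of HET over WT (x axis) for each tested gene of the 13 lists (rows, points spread vertically for legibility), with red for an edgeR adjusted p below 0.05, black bars for list medians and a dotted line at the median of all genes (-0.02). The AP-1 members and reported AP-1 targets have medians of 0.39 and 0.41, upstream kinases and other partners lie near 0, and macrophage, fibroblast and tenocyte markers lie farthest to the right (1.39, 0.83 and 0.998).

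*Mustn1* has been linked to the differentiation of muscle and cartilage cells. Of 17 genes of those programs 14 were tested, none passed, 7 were above 0 and 7 below, and the median log2 fold change was 0.04. *Col2a1*, the collagen of cartilage, was the highest (1.06, edgeR adjusted p = 0.434), at 2.51, 4.10 and 5.92 CPM in HET and 1.10, 2.34 and 2.51 CPM in WT. HET 1 and WT 3 met at the edge of their ranges. *Myf5*, a myogenic factor of satellite cells, was the lowest (-0.59, adjusted p = 0.197), at 3.74, 4.25 and 4.08 CPM in HET and 5.92, 6.42 and 5.81 CPM in WT. It was lower in every HET mouse than in every WT mouse, yet did not pass the test over all genes. The same order held in *Pax7* (-0.22, edgeR adjusted p = 0.807), named after its values were seen. That made 2 of the 14 (6.02% of all genes), and 0 the other way.

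The trap sits inside *Mustn1*, so the genes around it were examined. Within 200 kb of *Mustn1* lay 17 other genes, of which 8 were tested, none passed, 7 were below 0 and the median log2 fold change was -0.08. *Tmem110*, on the same strand and ending 2.27 kb before *Mustn1*, was the lowest at -0.31 (SE 0.14, unadjusted p = 0.0486, edgeR adjusted p = 0.641), with 8.81 ± 0.606 CPM in HET and 10.9 ± 1.48 CPM in WT. Among the others were *Nek4* (-0.24), *Sfmbt1* (-0.22), *Spcs1* (-0.08), *Pbrm1* (-0.06), *Glt8d1* (-0.03) and *Gnl3* (0.02). Only in *Nek4*, 1 of the 8, did every HET mouse lie below every WT mouse, as was so for 6.02% of all genes. A drop of the size of *Mustn1*'s was seen in none of them.

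The genes whose log2 CPM followed *Mustn1* most closely over the 6 mice were *Trmo* (Pearson r = 0.993), *Prdm4* (0.992), *Draxin* (0.980), *Aldh1a1* (0.979) and *Ccdc28a* (0.972). Likeness over 6 mice in 2 genotypes is a description, since any gene that is lower in all HET mice scores high, and the best of 14696 genes were taken. Their differences were mostly small, with log2 fold changes of -0.24, -0.11, -2.08, -0.29 and -0.41, and none passed the edgeR test (adjusted p from 0.197 to 0.872). *Draxin* was at or under 0.506 CPM in every mouse and passed the filter on low counts only through the WT mice. Its likeness to *Mustn1* is therefore partly set by that filter. The genes most like *Fos* were *Rps19-ps3* (0.966), *Cxcl16* (0.961), *Polr2d* (0.960), *Prlr* (0.953) and *H2-Q4* (0.952), of which none separated the genotypes. Among the 8 genes, *Jun* followed *Fos* most closely (r = 0.931 over the same 6 mice), then *Fosb* (0.759), *Jund* (0.625), *Junb* (0.586) and *Fosl2* (0.475). *Mustn1* ran against *Jun* (r = -0.66) and *Fos* (-0.39) over these mice, which share library and genotype.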

How the data were processed

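RNA from the soleus of 6 mice (3 HET, 3 WT, grouped by the sample titles) was sequenced as poly-A, stranded, single-end libraries. The authors aligned reads with STAR 2.7.3a to GRCm38.p6 and deposited raw counts per gene from featureCounts 2.0.3, counted in reverse-stranded mode. They also deposited a normalized signal (each count over its library's DESeq2 size factor), which was used to find the members by symbol. A deposited comparison table with the authors' own fold changes and p-values was not used, and 0 columns per mouse were left without a sample.

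Counts were analysed in R 4.3.3 with edgeR 4.0.16 (filterByExpr with a minimum count of 10, TMM scaling, robust quasi-likelihood test, genotype as the only term, Benjamini-Hochberg adjustment over 14696 genes, threshold 0.05), limma 3.58.1 and DESeq2 1.42.0, and in Python 3.11.15. The depth was 26790075 to 50368796 reads on genes, and the biological coefficient of variation was 0.143. The fit was tested on simulated data. SE is the log2 fold change over the square root of F, and likeness was computed on log2 CPM (prior count 2). Gene symbols came from GENCODE M21 (51633 of 51912 genes). Alternatives were RLE, upper-quartile and library-size scaling, DESeq2, limma-voom, edgeR without robust estimation, no filter, at least 10 counts in every library, a replicate block and leaving out each mouse.

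Named genes were the 8 members, each list's genes past the threshold or otherwise its highest and lowest gene, the 5 genes most like *Mustn1* and *Fos*, tested genes within 200 kb of *Mustn1* (1 of them is not reported here), and 5 genes that check the sex label. A few further genes were named after their values were seen, as marked at each. The members and lists were chosen with earlier results of these data known.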

Additional observations from a re-analysis of the deposited data

How the results depend on the processing

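*Mustn1* kept its direction under all 15 alternatives and passed the threshold in 9 of them. It missed with limma-voom (log2 fold change -0.99, adjusted p = 0.0673) and with edgeR without robust estimation (-0.96, adjusted p = 0.0606). Leaving out 1 mouse at a time gave -1.09 to -0.88, past the threshold in 2 of 6 fits. Over all genes, the counts higher and lower in HET, 21 and 1 by edgeR, were 200 and 10 with DESeq2, 3 and 0 with limma-voom, 6 and 0 without robust estimation, and 386 and 18 without the filter on low counts, and leaving out 1 mouse gave 0 to 77 and 0 to 6. No filter also gave 1 of the 7 Fos and Jun genes past the threshold (*Jun*), where every other setting gave 0. The same setting passed 2 of the immediate-early and handling genes and 2 of the *Mustn1*-linked differentiation genes. The cause of these shifts was not tested. *Fosb* has no value with at least 10 counts in every library, where it drops out.

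Deviations of mice with the same replicate number had correlations of 0.203, -0.00578 and -0.0349 for numbers 1, 2 and 3. Mice with different numbers had -0.137 to 0.133, so number 1 lay above that range and numbers 2 and 3 inside it. These few values cannot settle whether the numbers mark a pairing, and the main test did not use them. With a replicate block in edgeR the counts were 114 higher and 2 lower, *Mustn1* was at -0.96 (adjusted p = 0.0151), and 0 of the Fos and Jun genes passed. With library size as the only scaling, the median of all genes moved from -0.02 to 0.06, and no member changed direction. The number of mice, and for *Fosb* and *Fosl1* the number of reads, limits what can be told apart.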
